A study of Mus musculus with 6 samples.

Results

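Srrm4 and 9 other genes of neuronal splicing control were followed in nuclear RNA of the mouse cerebellum: the paralogs Srrm3 and Srrm4, the antisense gene Srrm4os, Nova1, Nova2, Ptbp1, Ptbp2, Rbfox1, Rbfox2 and Rbfox3. They were taken by symbol from the 24594 genes of the deposited count table. All 10 were found and all 10 passed the filter on low counts that left 13115 genes for testing. The set was chosen by the genotype difference of Srrm4 in these same libraries, and its other members by their family. Srrm4os belongs to none of these families and was taken as the gene that overlaps Srrm4. The genotype values below are therefore a description of these genes, and their p-values carry no independent weight.

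The study sequenced nuclear RNA of sorted cerebellar granule cell nuclei from mice aged 7 months. Its 6 libraries were 3 from Ezh1(cKO/cKO);Neurod1-Cre mice (cKO) and 3 from Ezh1(wt/wt);Neurod1-Cre mice (WT), so the Cre driver named for the granule neuron factor Neurod1 was present in both genotypes. Ezh1 encodes a catalytic subunit of the Polycomb complex PRC2, which places the repressive mark H3K27me3 on histone H3. The labels give neither the deleted exons, nor the strain, nor whether replicates were separate animals, so p-values measure the spread between these samples, which may be partly technical.

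Splicing regulators of this kind bind pre-mRNA near alternative exons and decide which exons a neuron keeps. Srrm4, also called nSR100, and its paralog Srrm3 promote the inclusion of very short neuronal exons called microexons. Nova proteins bind clusters of YCAY motifs, Rbfox proteins bind GCAUG motifs, and Ptbp1 holds neuronal exons out of transcripts in other cells until it gives way to Ptbp2 during neuronal differentiation. Counts per gene do not show which exons were included, so only the level of the regulators was measured here.

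The libraries held 6340236 to 8284768 counts. Ezh1 was at 52.5, 51.0 and 55.6 CPM (counts per 1e+06 counts of a library) in the cKO libraries and at 71.0, 75.7 and 83.3 CPM in the WT libraries. All cKO values were below all WT values (log2 fold change -0.53, SE 0.10, adjusted p = 0.00672 by edgeR's quasi-likelihood test). Without cKO replicate 1 the adjusted p was 0.0833, and without WT replicate 3 it was 0.115. Replicate 1 of each genotype had Xist at 811 to 831 CPM, while the other 4 libraries had Xist at 1.39 to 4.46 CPM and 4 Y-linked genes at 123 to 148 CPM in sum, so each genotype had 1 library of the first kind. Summed markers of 8 cerebellar cell types overlapped between the genotypes for all 8 lists. Granule cell markers summed to 3154 to 3837 CPM in cKO and 3157 to 3297 CPM in WT. Of the 51 markers tested, Neurod1 alone was called different (higher). It was at 317, 318 and 287 CPM in cKO and at 138, 154 and 134 CPM in WT.

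Promoter windows of the 2 Srrm paralogs are shown because Srrm4 differed between the genotypes and Srrm3 did not pass the test. They are RefSeq sequences of GRCm38.p6, the assembly of the authors' mm10, each running from 250 bases before to 50 bases after an annotated start, with CG dinucleotides in capitals. Srrm4 is on the minus strand (chr5:116591768-116592067) and Srrm3 on the plus strand (chr5:135817856-135818155).
Srrm4: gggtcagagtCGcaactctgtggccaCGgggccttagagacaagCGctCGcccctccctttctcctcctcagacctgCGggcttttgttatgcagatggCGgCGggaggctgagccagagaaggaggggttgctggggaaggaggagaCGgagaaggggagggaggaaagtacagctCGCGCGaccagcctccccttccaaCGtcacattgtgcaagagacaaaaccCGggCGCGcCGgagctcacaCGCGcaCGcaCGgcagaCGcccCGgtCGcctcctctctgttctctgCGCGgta
Srrm3: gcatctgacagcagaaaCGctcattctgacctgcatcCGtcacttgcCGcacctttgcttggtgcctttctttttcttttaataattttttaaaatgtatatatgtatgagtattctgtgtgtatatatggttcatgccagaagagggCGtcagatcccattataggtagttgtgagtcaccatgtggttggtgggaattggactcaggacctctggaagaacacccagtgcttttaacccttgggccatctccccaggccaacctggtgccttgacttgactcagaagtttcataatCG
The Srrm4 window held 25 CG dinucleotides and 64.3% G and C, and 18.4% of all 32851 promoter windows in the table held at least as many CG. The Srrm3 window held 5 and 45.0%, against a median of 7 CG over all windows. The annotated spans of both genes reach beyond the upstream ends of these windows. For Srrm4 the span begins at 116592562, near its window. For Srrm3 it begins at 135806860, far upstream, so its window lies at a start deep inside the gene. The 2 windows are therefore not alike in place, and their CG counts do not compare the outermost promoters of the paralogs. Among the other members with an entry, the window of Ptbp2 held 36 CG, Ptbp1 22, Nova2 17, Nova1 14, Rbfox3 4 and the windows of Rbfox1 3 and 7. The parts TTCAGCACC and GGACAGC of the binding site of REST, a repressor of neuronal genes in other cells, were searched on both strands and lay in neither of the Srrm windows. They were found in only 0.371% and 6.56% of all windows, so their absence from 2 short windows does not show that the genes lack REST sites. No chromatin data were analysed here, so these counts describe sequence only.

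Srrm4 (NCBI gene 68955, chromosome 5, 116439268 to 116592562) was higher in cKO, with no overlap between the genotypes. It stood at 319, 317 and 357 CPM in the cKO libraries, against 243, 212 and 201 CPM in the WT libraries. The means were 331 ± 22.7 CPM in cKO and 219 ± 21.8 CPM in WT (SD, n = 3 each). The fitted difference was 1.51-fold, with a 95% interval of 1.35 to 1.70 (log2 fold change 0.60, SE 0.08). Over all 13115 genes it ranked as number 5 by p, with an adjusted p of 2.23e-04. In a whole sorted population, more cells of a type and more RNA per cell cannot be told apart (nor, where a gene is lower, fewer cells and less RNA per cell), so the value is an average over the nuclei of a library.

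Srrm4os (NCBI gene 76798, chromosome 5, 116438722 to 116465487), a long noncoding RNA gene on the opposite strand, was higher as well. Its level was 114, 121 and 136 CPM in the cKO libraries and 75.9, 65.1 and 74.9 CPM in the WT libraries. No cKO value reached down to the WT range. The means of 123 ± 11.1 CPM in cKO and 71.9 ± 5.97 CPM in WT gave a 1.71-fold difference (95% interval 1.50 to 1.95, log2 fold change 0.78, SE 0.09, adjusted p = 1.54e-05). It ranked as number 4 by p.

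The values of Srrm4 and Srrm4os may not be independent measurements. In the annotation 98.0% of the Srrm4os span lies within the Srrm4 gene. Of the 3655 exon bases of Srrm4os, 68 fall on the last exon of Srrm4, 3468 fall in its introns and 119 lie beyond its end. Whether the counting used the strand of the reads is not given in the sources used here, and nuclear RNA is rich in unspliced transcripts, so whether reads from Srrm4 introns were counted for Srrm4os cannot be told. The library counts were 2219, 2051 and 2321 for Srrm4 and 792, 781 and 881 for Srrm4os in cKO, against 1609, 1520 and 1657 for Srrm4 and 502, 467 and 617 for Srrm4os in WT. The ratio of Srrm4os to Srrm4 counts was 0.357, 0.381 and 0.380 in cKO and 0.312, 0.307 and 0.372 in WT, so 1 WT library lay between the cKO values.

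**Figure D1:**
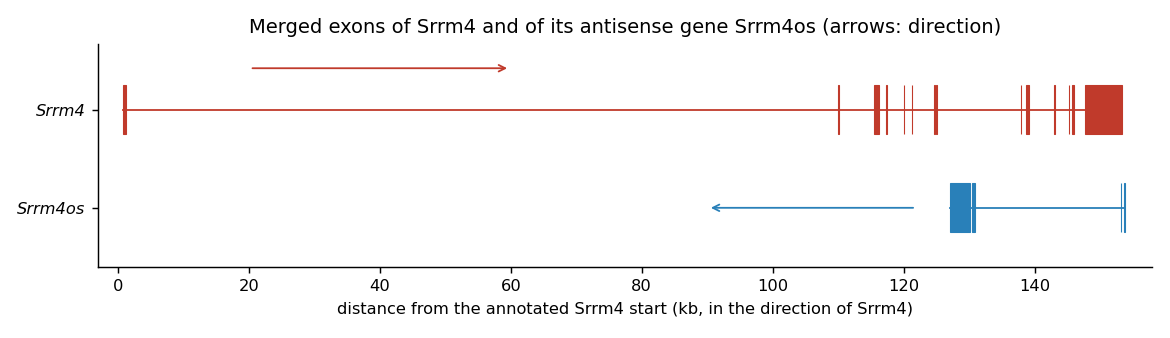
Merged exons (boxes) and spans (lines) of Srrm4 (above) and Srrm4os (below) by distance from the annotated Srrm4 start in kilobases, with arrows for the direction of transcription. Most exon bases of Srrm4os (3468 of 3655) lie in Srrm4 introns near the end of the gene.

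These differences were present in each subset of libraries that was fitted. With replicates 2 and 3 alone, which share the Y-linked signal, the log2 fold change was 0.71 for Srrm4 (adjusted p = 7.70e-04) and 0.87 for Srrm4os (adjusted p = 3.53e-04). Leaving out each library in turn gave 0.54 to 0.68 for Srrm4 and 0.71 to 0.83 for Srrm4os. The cKO replicate 3 had the highest Srrm4 and Srrm4os and also the highest sum of oligodendrocyte lineage markers. That sum was 406, 307 and 698 CPM in cKO and 449, 383 and 253 CPM in WT, and none of its 10 markers was called. Without cKO replicate 3 the log2 fold change was 0.54 for Srrm4 (adjusted p = 0.00357) and 0.71 for Srrm4os (adjusted p = 3.61e-04).

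Srrm3 (NCBI gene 58212, chromosome 5, 135806860 to 135874773), the paralog with a like role on microexons, lay at 392, 429 and 389 CPM in the cKO libraries and at 424, 429 and 408 CPM in the WT libraries. The ranges overlapped, and the fitted fold was 0.960 (95% interval 0.867 to 1.06, log2 fold change -0.06, adjusted p = 0.814). The Srrm4 to Srrm3 ratio of counts was 0.814, 0.738 and 0.917 in cKO and 0.573, 0.494 and 0.493 in WT. Srrm3 had more counts than Srrm4 in all 6 libraries.

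**Figure D2:**
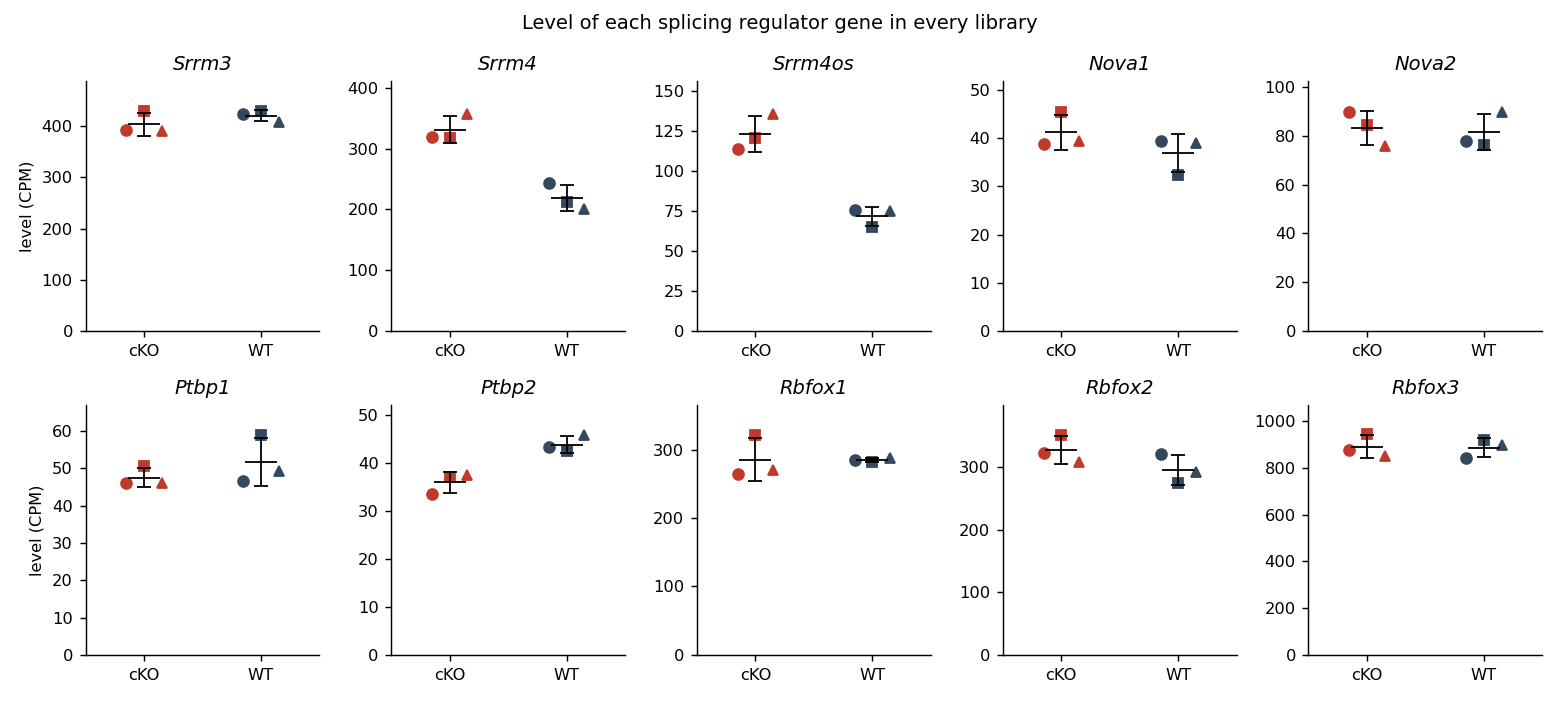
Level in CPM (y axis, from 0) of each gene in the 3 cKO (red, left) and 3 WT (dark blue, right) libraries, with circles, squares and triangles for replicates 1, 2 and 3 and bars for mean and SD. Srrm4 and Srrm4os lie higher in all cKO libraries, Ptbp2 lies lower in all of them, and the ranges of the other 7 genes overlap.

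Srrm4 and Srrm4os were the 2 members called higher and 0 were called lower, at an adjusted p below 0.05. Over all genes 0.579% were called, 0.32% higher and 0.259% lower. Since this contrast guided the choice of Srrm4, the count is not read against that background. The other 8 members were not called, and 1 of them had an unadjusted p below 0.05, as did 11.9% of all genes. The median log2 fold change of the 10 genes was 0.02, against -0.01 over all genes tested. The 95% intervals of all 10 lay within 2-fold, and those of the 8 uncalled genes spanned folds from 0.693 to 1.33.

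**Figure D3:**
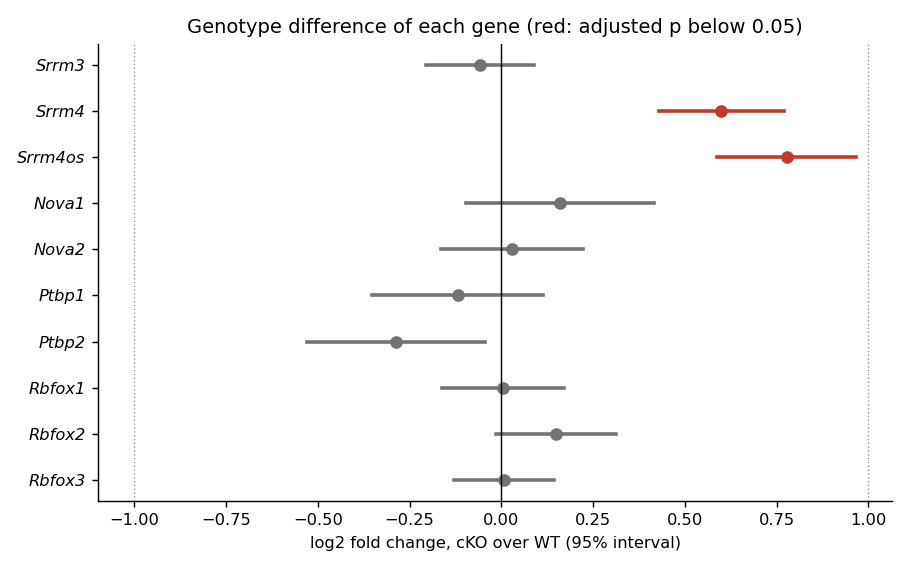
Fitted log2 fold change, cKO over WT, of each gene (points) with its 95% interval (lines), red for the genes with an adjusted p below 0.05. Dotted lines mark 2-fold. Srrm4 at 0.60 and Srrm4os at 0.78 stand clear of 0, and the interval of Ptbp2 ends just below it.

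Ptbp2 (NCBI gene 56195, chromosome 3, 119718741 to 119784647), the neuronal polypyrimidine tract binding protein that takes over from Ptbp1, had the lowest log2 fold change of the set. It was at 33.4, 36.9 and 37.4 CPM in the cKO libraries and at 43.2, 42.4 and 45.6 CPM in the WT libraries. The genotypes did not overlap, as for 8.39% of all genes with cKO below WT. The fitted fold was 0.820 (95% interval 0.693 to 0.970, log2 fold change -0.29, SE 0.12), and after adjustment over all genes it was not called (adjusted p = 0.319). The interval of this single row ends below 1 because it is not adjusted.

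Ptbp1 (NCBI gene 19205, chromosome 10, 79854432 to 79864435), the form typical of glia and progenitors, had 46.0, 50.6 and 46.0 CPM in cKO and 46.7, 58.9 and 49.3 CPM in WT. The cKO values lay within or just below the WT range (log2 fold change -0.12, SE 0.11, adjusted p = 0.739). Its span overlaps Plppr3, which averaged 24.6 ± 1.80 CPM in cKO and 27.2 ± 1.46 CPM in WT (SD, n = 3 each). All cKO values of Plppr3 lay below all WT values, as for 8.39% of all genes, and it was not called (adjusted p = 0.732). The Ptbp1 span also overlaps E130317F20Rik, which averaged 4.32 ± 0.15 CPM in cKO and 3.96 ± 0.39 CPM in WT. How reads in the shared stretches were assigned is not given in the sources used here. Sums of non-neuronal markers overlapped between the genotypes. Astrocyte and Bergmann glia markers summed to 132 to 140.4 CPM in cKO and 113 to 145 CPM in WT, and microglial markers to 21.5 to 26.5 CPM in cKO and 16.9 to 33.1 CPM in WT. Vessel and meningeal markers summed to 11.3 to 20.8 CPM in cKO and 14.8 to 22.2 CPM in WT, with Cldn5, Kdr and Rgs5 below 1 CPM in every library. Oligodendrocyte lineage markers had the largest of these sums, 307 to 698 CPM in cKO and 253 to 449 CPM in WT, in these nuclei sorted for NeuN. The part of such cells in the Ptbp1 level was not tested. The Ptbp2 to Ptbp1 ratio of counts was 0.725, 0.729 and 0.813 in cKO and 0.926, 0.719 and 0.926 in WT, so WT replicate 2, with the highest Ptbp1, lay below all cKO values.

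Nova1 and Nova2 encode neuronal KH-domain proteins of the same family. Nova1 (NCBI gene 664883, chromosome 12, 46697895 to 46819480) had 38.8, 45.4 and 39.4 CPM in cKO and 39.4, 32.3 and 39.0 CPM in WT, a log2 fold change of 0.16 (SE 0.12, adjusted p = 0.671). Nova2 (NCBI gene 384569, chromosome 7, 18925888 to 18965319) had 89.5, 84.3 and 75.6 CPM in cKO and 78.0, 76.3 and 89.8 CPM in WT (0.03, SE 0.09, adjusted p = 0.937). For both genes the genotypes overlapped. Nova2 had more counts than Nova1 in every library, with ratios of 2.30, 1.86 and 1.92 in cKO and 1.98, 2.36 and 2.31 in WT.

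Rbfox3 encodes NeuN, the nuclear antigen that the antibody used for sorting recognises, so its protein decided which nuclei were sequenced. Rbfox3 (NCBI gene 52897, chromosome 11, 118489760 to 118911597) had 874, 945 and 852 CPM in cKO and 843, 921 and 896 CPM in WT. The means of 891 ± 48.8 CPM in cKO and 887 ± 39.6 CPM in WT differed by less than the SD of either genotype (log2 fold change 0.01, 95% interval -0.13 to 0.14, adjusted p = 0.985). It was the most abundant member and stood above 99.6% of all tested genes in CPM.

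Rbfox1 (NCBI gene 268859, chromosome 16, 5884793 to 7412480) spans 1527688 bases, the longest gene of the set. It had 264, 321 and 271 CPM in cKO and 284, 282 and 288 CPM in WT, a log2 fold change of 0.00 (SE 0.08, adjusted p = 0.991). The SD was 11.0% of the mean in cKO, with replicate 2 the highest of all libraries, and 1.10% in WT. The lncRNA gene 1700123O21Rik inside it averaged 12.3 ± 2.30 CPM in cKO and 7.77 ± 2.26 CPM in WT (SD, n = 3 each). In CPM each cKO library of 1700123O21Rik lay above each WT library, as for 7.88% of all genes. EdgeR did not call it (log2 fold change 0.65, SE 0.23, adjusted p = 0.227).

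Rbfox2 (NCBI gene 93686, chromosome 15, 77078990 to 77308434), the family member also used widely outside the nervous system, had 323, 351 and 308 CPM in cKO and 320.2, 274 and 292 CPM in WT. The value of WT replicate 1 fell inside the cKO range. The means were 327 ± 21.9 CPM in cKO and 295 ± 23.3 CPM in WT, a log2 fold change of 0.15 (SE 0.08, adjusted p = 0.484). The Rbfox2 to Rbfox1 ratio of counts was 1.22, 1.09 and 1.14 in cKO and 1.13, 0.972 and 1.01 in WT. The lncRNA gene 1700109K24Rik, inside Rbfox2, averaged 9.98 ± 0.52 CPM in cKO and 8.66 ± 2.10 CPM in WT (SD, n = 3 each). Its values overlapped between the genotypes (log2 fold change 0.20, SE 0.22, adjusted p = 0.785).

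Levels of different genes were compared per kilobase of merged exons from GENCODE M21. Rbfox3 was highest at 153 ± 6.84 CPM per kb (SD over all 6 libraries), followed by Rbfox1 at 64.8 ± 4.54, Srrm3 at 64.3 ± 2.82 and Rbfox2 at 38.2 ± 3.28 CPM per kb. Srrm4 followed at 31.7 ± 7.46 and Srrm4os at 26.7 ± 8.01 CPM per kb, whose SD takes in the genotype difference. The lowest were Ptbp1 at 10.5 ± 1.04, Nova2 at 9.82 ± 0.78, Nova1 at 4.47 ± 0.47 and Ptbp2 at 4.34 ± 0.51 CPM per kb. Against protein-coding genes tested, Rbfox3 stood above 99.9%, Srrm4 above 96.2% and Ptbp2 above 52.5%.

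The 9 pairs of neighbours in this order were compared within libraries of both genotypes together. The pairs and their direction came from the same 6 libraries, so the tests give no independent support for the order. For 5 of them the difference had the same sign in all 6 libraries: Rbfox3 over Rbfox1 by 1.24 on the log2 scale, Srrm3 over Rbfox2 by 0.75, Srrm4 over Srrm4os by 0.27, Srrm4os over Ptbp1 by 1.30 and Nova2 over Nova1 by 1.14. Each of these had the smallest p that an exact two-sided sign-flip permutation test over 6 libraries can give, 0.0313, and 0.0563 after adjustment over the 9 pairs, so 0 pairs passed at 0.05. Rbfox1 and Srrm3 differed by 0.01 (SD 0.07), Ptbp1 and Nova2 by 0.09 (SD 0.20) and Nova1 and Ptbp2 by 0.04 (SD 0.27), each less than its spread. Rbfox2 exceeded Srrm4 by 0.30 (SD 0.28) and in 5 of 6 libraries.

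The order rests on the length used, and whether the counts cover exons alone is not given in the sources used here. Per kilobase of the whole gene span, Srrm3 was highest at 6.07 ± 0.27 CPM per kb and Ptbp1 second at 4.96 ± 0.49, while Rbfox1 was lowest at 0.187 ± 0.013. On that scale 6 of the 9 neighbour pairs had the same sign in all 6 libraries and passed (adjusted p = 0.0469 for each, exact sign-flip permutation test). This order, too, was taken from the libraries tested. Whether such pairs pass depends only on how many reach the smallest p, so passing here is no firmer than on the exon scale. Srrm3 lay above Srrm4 and Nova2 above Nova1 on both scales, whereas Ptbp2 lay below Ptbp1 on both.

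**Figure D4:**
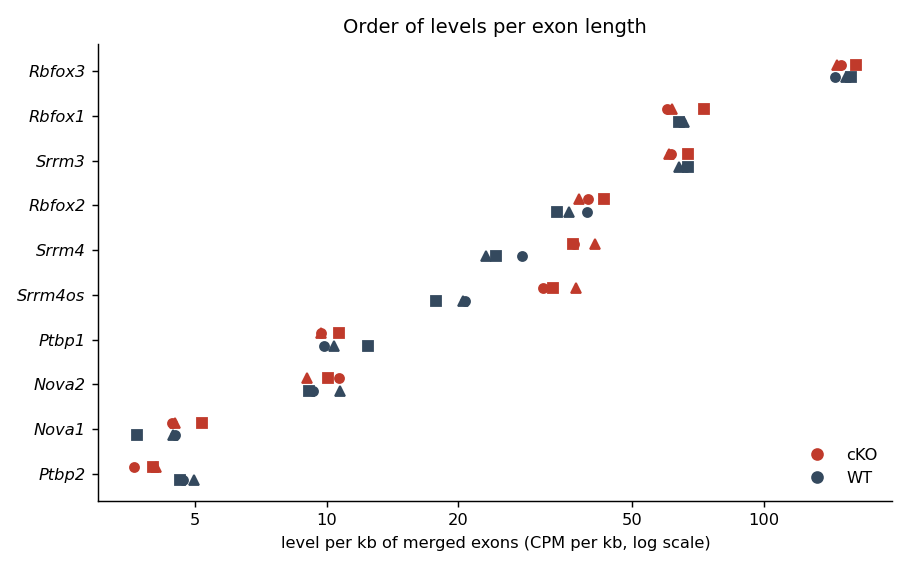
Level per kilobase of merged exons (x axis, log scale) of each gene in the 3 cKO (red, upper of each row) and 3 WT (dark blue, lower) libraries, with circles, squares and triangles for replicates 1, 2 and 3. Rbfox3 lies highest near 153 CPM per kb and Ptbp2 lowest near 4.34, and the genotypes part visibly for Srrm4, Srrm4os and Ptbp2.

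Among 8029 genes that averaged 10 CPM or more, the 5 whose levels followed Srrm4 most closely over the 6 libraries were Atp2b4, Vwa5b2, Slc2a13, Cmip and Mdga1. Likeness was the root mean square difference of log2 CPM after centring each gene on its mean, and it was 0.07, 0.09, 0.10, 0.10 and 0.11 for these genes, against a median of 0.35. Srrm4os lay at 0.13. Atp2b4, which encodes a plasma membrane calcium pump, had 43.6, 42.2 and 46.6 CPM in cKO and 31.0, 25.8 and 28.8 CPM in WT. Mdga1, which encodes a cell surface protein that binds neuroligins, had 37.7, 30.9 and 40.6 CPM in cKO and 28.9, 24.5 and 24.6 CPM in WT. All 5 had each cKO library above each WT library, as follows from a choice by likeness to Srrm4. Mdga1 was not called (log2 fold change 0.49, adjusted p = 0.101 by edgeR), and the others were called higher. After such a choice these calls carry no independent weight.

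The wider set of splicing regulators was read by lists. Of 37 other neuronal splicing regulators and RNA-binding proteins, 34 were tested, among them the Celf, Mbnl, Elavl, Khdrbs and Musashi families. EdgeR called 0 of them and limma-voom 0, DESeq2 called 1 (Msi2), and 7 had an unadjusted p below 0.05, beside the 11.9% of all genes. DESeq2 gave an adjusted p for 18 of the 34. The log2 fold change was positive for 24 and negative for 10 (median 0.07). The genotypes did not overlap for 8 of the 34, or 23.5%, 7 of them with cKO higher, against 16.3% of all genes, 7.88% with cKO higher.

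Msi2, an RNA-binding protein of the Musashi family that controls translation, had the smallest p of this list. It was at 199.6, 199 and 214 CPM in cKO and at 162, 166 and 169.9 CPM in WT, a log2 fold change of 0.30 (SE 0.08, adjusted p = 0.0794). Celf5, a neuronal CELF family splicing factor, had 108, 99.8 and 95.0 CPM in cKO and 82.2, 88.2 and 77.1 CPM in WT (0.29, SE 0.09, adjusted p = 0.137). The genotypes of both genes were apart, and neither was called by edgeR. By DESeq2 the adjusted p of Msi2 was 0.0107.

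Of 7 genes for other Srrm proteins and factors that act near Srrm4 at splice sites, edgeR and limma-voom called 0, DESeq2 called 0 of the 6 to which it gave an adjusted p, and 1 had an unadjusted p below 0.05 (11.9% of all genes). The log2 fold change was negative for 6 of the 7 (median -0.11). The genotypes did not overlap for 1 gene with cKO higher (U2af1, named after its values were seen, beside 7.88% of all genes) and 1 with cKO lower (Srsf11, beside 8.39%). Srsf11, which encodes an SR protein that works with Srrm4 on microexons, was at 209.9, 193 and 219 CPM in the cKO libraries, all below the 223, 262 and 240.8 CPM in the WT libraries (log2 fold change -0.22, SE 0.08, adjusted p = 0.241). Srrm2, a large structural protein of the spliceosome and of nuclear speckles, had 1751 ± 22.5 CPM in cKO and 1892 ± 137 CPM in WT (-0.11, SE 0.06, adjusted p = 0.509), with overlapping values.

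Genes whose exons these proteins are known to control were counted by level alone. Of 9 with exons controlled by Srrm4, edgeR and limma-voom called 0, and DESeq2 called 0 of the 7 to which it gave an adjusted p, Unc13b not among them. By edgeR 1 had an unadjusted p below 0.05, beside 11.9% of all genes, and the median log2 fold change was -0.02. The synaptic vesicle priming gene Unc13b had 36.1, 25.6 and 30.3 CPM in cKO and 21.2, 27.4 and 24.3 CPM in WT (0.34, SE 0.15, adjusted p = 0.349). The log2 fold change of Unc13b was 0.20 without cKO replicate 1 and 0.12 with replicates 2 and 3 only. The adaptor gene Apbb1 averaged 116 ± 7.34 CPM in cKO and 124 ± 8.89 CPM in WT (-0.09, adjusted p = 0.740). Both genes overlapped between the genotypes. Of the 9, 1 did not (Trio, with cKO lower, named after its values were seen), beside 8.39% of all genes.

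Of 12 genes with exons controlled by Nova, Ptbp or Rbfox proteins 11 were tested. EdgeR and limma-voom called 0, and DESeq2 called 0 of the 9 to which it gave an adjusted p. By edgeR 1 had an unadjusted p below 0.05, beside 11.9% of all genes, and the median log2 fold change was -0.01. The genotypes did not overlap for 2 of the 11, Gphn and Dab1 (the second named after its values were seen), both with cKO lower, beside 8.39% of all genes. The potassium channel gene Kcnj6 averaged 81.0 ± 8.97 CPM in cKO and 67.8 ± 6.64 CPM in WT, with overlapping values (0.26, SE 0.10, adjusted p = 0.285). Gphn, which encodes the inhibitory synapse scaffold gephyrin, had 84.9, 75.2 and 84.0 CPM in cKO, all below the 87.5, 99.6 and 89.2 CPM in WT (-0.18, SE 0.09, adjusted p = 0.444), and was not called. All values for these lists are levels of whole genes and say nothing of exon use.

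**Figure D5:**
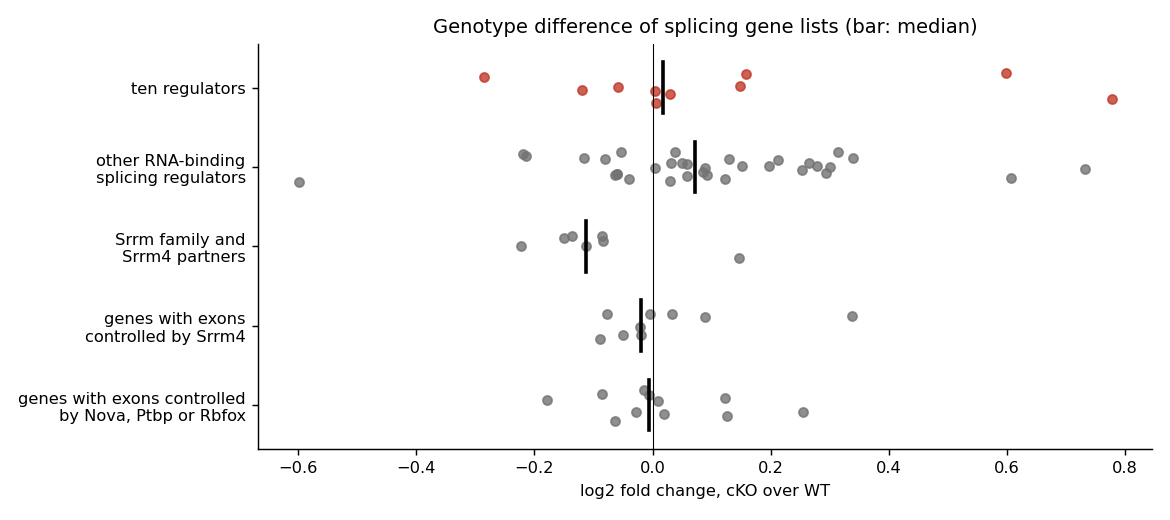
Fitted log2 fold change, cKO over WT, of each tested gene (points) in the set of 10 regulators (red) and the 4 wider lists (grey), with a bar at each median and vertical scatter for legibility only. The medians lie between -0.11 and 0.07, and Srrm4 and Srrm4os are the red points at 0.60 and 0.78.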

How the data were processed

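Nuclei were stained for NeuN and sorted, and libraries were made with the NEBNext Ultra II RNA kit, per the labels' protocols. The authors deposited whole-number counts per NCBI gene ID, not normalized. Per the submitters' processing notes Subread and mm10 were used. Not given in the sources used here were the version, the annotation, and the handling of strand, overlaps and multi-mapping reads.

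Symbols and positions came from RefSeq (GRCm38.p6), which matched 24570 of 24594 IDs, and merged exons from GENCODE M21. The fit used edgeR 4.0.16 in R 4.3.3: filterByExpr (99.8% of counts kept), TMM factors, and robust quasi-likelihood tests of cKO over WT on all 6 libraries with genotype as the only term. Adjusted p-values are two-sided Benjamini-Hochberg values over 13115 genes, called below 0.05. CPM uses library totals and TMM factors. DESeq2 1.42.0, limma 3.58.1 (voom), other scalings, no filter, a sex term, a replicate block and leaving out libraries were alternatives. No pair of libraries was a duplicate (chi-square over its degrees of freedom of at least 3.87 for each pair).

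Members and lists were chosen with earlier results of these data known. The text names all members, Ezh1, up to 4 called genes of each list or the 2 of smallest p, and the 5 genes most like Srrm4, passing over predicted genes. Genes of the count table that overlap members are named as well, among them Mir6910 inside Ptbp1, with 0 to 6 counts in a library. In simulated counts for this comparison (12952 genes), the fit recovered 62.7% of genes changed 1.5-fold and 89.4% of those changed 2-fold. Of its calls there, 6.29% were false. The simulation gave every gene the same fixed dispersion and held no sex difference or outlying library, so these shares may not hold for the real libraries. Depth limits precision most for Ptbp2, Nova1 and Ptbp1, whose counts are the lowest (from 232 in a library).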

Additional observations from a re-analysis of the deposited data

How the results depend on the processing

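Srrm4 and Srrm4os kept their direction and their call in all 15 alternatives (30 of 30 values), with log2 fold changes of 0.54 to 0.71 for Srrm4 and 0.71 to 0.87 for Srrm4os and adjusted p of at most 0.0194 and 6.88e-04. The other 8 members were called in none of theirs, and 110 of 120 values kept their sign. The 10 others were close to 0: Nova2 at -0.056 with replicates 2 and 3 only, Rbfox3 at -0.015 there, and Rbfox1 at -0.0029 by limma-voom and -0.0014 with the replicate block. Leaving out each library in turn gave -0.026 to 0.108 for Nova2, -0.090 to 0.058 for Rbfox1 and -0.038 to 0.040 for Rbfox3. Msi2 was called with library totals alone (adjusted p = 0.0383), with no filter (0.0408) and by DESeq2 (0.0107).

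The number of genes called, 76, was 277 with no filter on low counts, 116 by DESeq2, 42 by limma-voom, 125 with sex as a term and 43 with replicates 2 and 3 only. It ranged from 13 (without WT replicate 3) to 249 (without WT replicate 1) when each library was left out, with 14 without cKO replicate 1, 18 without WT replicate 2 and 150 without cKO replicate 2, so single libraries move it by over 1.5 times. With library totals alone 69 were higher and 32 lower, against 42 and 34. The cause was not tested. The replicate block gave 90 genes. Same-numbered libraries deviated together only for replicate 1 (correlations of 0.15, 0.01 and -0.04), so the numbers were not taken as pairs. Of the neighbour pairs in the order of levels, 0 passed per exon length and 6 per gene span. With 5 libraries the smallest sign-flip p is 0.0625, so those tests can say nothing of stability.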
